A study of Mus musculus with 4 samples.

Results

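Aminoacyl-tRNA synthetases are the enzymes that join each amino acid to its tRNA, and their transcripts were followed here across 4 arrays of the mouse pro-B cell line Ba/F3. The members were fixed by name: 37 genes, made up of 20 cytosolic enzymes, 15 mitochondrial enzymes (symbols ending in 2) and the scaffold proteins Aimp1 and Aimp2. A gene was used where the array annotation gave a probe set that symbol alone, which held for 34 of the 37, among 19935 genes in all. These were 17 cytosolic enzymes, 15 mitochondrial enzymes and the 2 scaffolds. The probe set that carries Aars also carries another symbol, and Dars and Mars had no probe set of their own in the annotation used, so these 3 were not analysed here. Aimp2 ends in 2 but belongs to the cytosol, and Gars and Kars supply both compartments from a single gene each. They were kept with the cytosolic enzymes.

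The BCR-ABL cells without IL-3 were a Ba/F3 line in which doxycycline at 500 ng/ml switched on the fusion kinase BCR-ABL, grown with no growth factor (n = 2, arrays A and B). The BCR-ABL cells with IL-3 were the same kind of cells under the same doxycycline dose with interleukin-3 added (n = 1). The parental cells were Ba/F3 grown with IL-3, which the line needs to survive (n = 1). All were harvested in logarithmic growth, in medium with serum. Whether A and B were separate cultures, how the inducible line was cloned and whether the parental cells received doxycycline is not in the labels. The spread behind each p-value comes from the gaps between A and B, mostly pooled over all genes rather than the gene's own. Since A and B may not be separate cultures, it may be technical, and it holds no spread among parental cultures. BCR-ABL, doxycycline, the derived line and, in the first comparison, the lack of IL-3 differ from the parental array together and cannot be told apart.

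Transcripts were measured on Affymetrix Gene 1.0 ST arrays. The deposited value of the parental array is 0 for every probe set, so each value below is a log difference from that array, taken to be log2. Absolute levels were not available to the comparisons. For the same reason the line's identity could not be checked against the presence of its defining markers. Of 25 measured markers of B lineage, mast, erythroid, myeloid and T cells, 2 were called higher in BCR-ABL cells without IL-3 than in parental cells (Cpa3 and Hdc) and 4 lower (Cma1, Klf1, Epor and Hbb-y). Over all genes 5.19% were called higher and 2.87% lower. Mast markers ranged from -0.90 to 3.04 and the 4 measured erythroid markers from -2.55 to -0.46, against -0.57 to 1.27 for the 34 members. Hdc, Cma1 and Epor lost their calls when arrays were centred on their medians. The part of these markers in the results below was not tested. In RNA from whole cultures, fewer cells with a transcript and less of it per cell cannot be told apart. The median over all 28815 probe sets was -0.0016 on A, -0.064 on B and 0.0029 on the array with IL-3. None of the members' probe sets was marked as dim by its values, a mark that can miss dim ones. Precision is limited by having 4 arrays.

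Each synthetase recognises its amino acid and the matching tRNAs. The enzymes fall into 2 classes with unrelated catalytic folds. Cells translate in the cytosol and in mitochondria, and most amino acids have a separate nuclear gene for each compartment. In mammals, many of the cytosolic enzymes are transcriptional targets of ATF4, the activator of the integrated stress response, which binds C/EBP-ATF response elements when amino acids run short or eIF2 is phosphorylated. Several cytosolic enzymes are held in a multi-synthetase complex by the scaffolds Aimp1, Aimp2 and Eef1e1.

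In BCR-ABL cells without IL-3 the cytosolic enzymes were higher than in parental cells as a group, while most mitochondrial enzymes did not pass the test below. Of the 17 cytosolic enzymes 12 were called higher by limma at an adjusted p under 0.05, and 0 lower. Of the 15 mitochondrial enzymes 2 were called higher (Yars2 and Nars2) and Fars2 lower. The scaffold Aimp2 rose and Aimp1 did not pass. In all, 15 of 34 members were called higher, where 5.19% of all genes were, and 1 lower, where 2.87% were. With dim probe sets left out, the member counts were the same and the shares of all genes were 7.54% and 4.01%. The median difference was 0.68 for cytosolic and 0.06 for mitochondrial enzymes, against -0.04 for all genes (log2). By size, 15 members were at least 1.5-fold higher, as were 4.33% of all genes, and 0 were 1.5-fold lower, as were 2.33%. The 15 past this size were the same genes as the 15 called higher, so these counts are not separate evidence. The highest fold was 2.42, for Tars. With each array centred on its median over all probe sets, 8 members stayed called higher (1.93% of all genes) and 0 lower, and those that kept the call are named below.

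**Figure D1:**
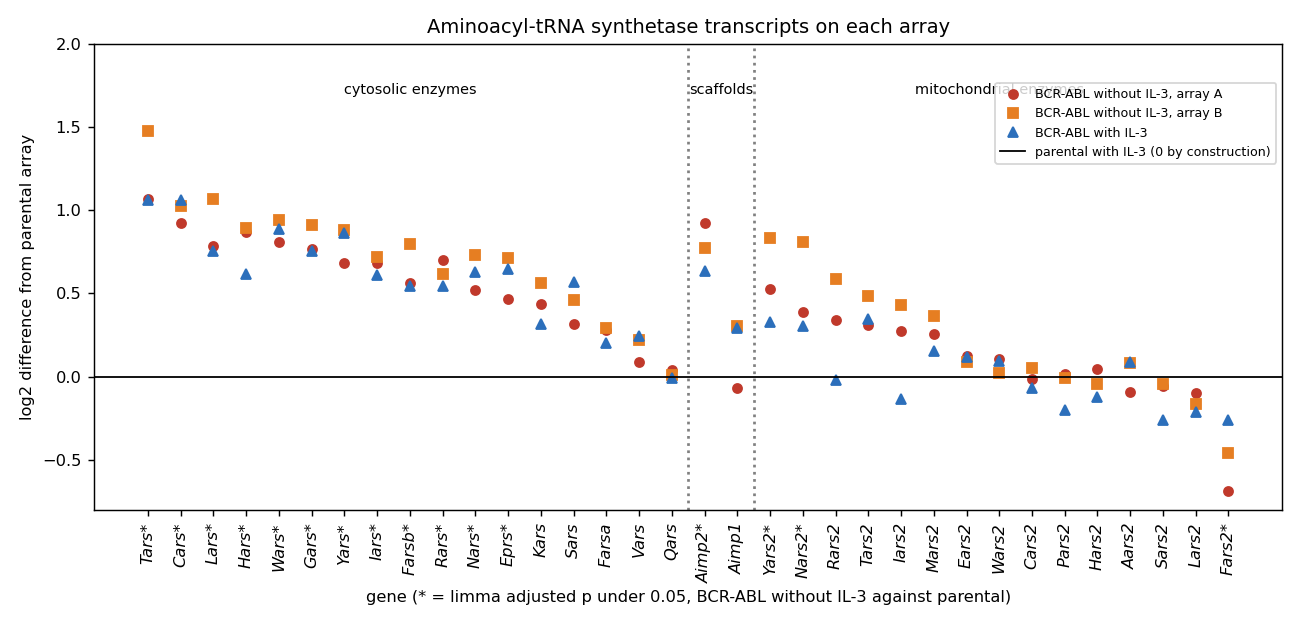
Log2 difference from the parental array (vertical axis) for each of the 34 members (horizontal axis), on arrays A and B of BCR-ABL cells without IL-3 and on the array of BCR-ABL cells with IL-3, with the parental array as the line at 0. All cytosolic enzymes except Qars lie above the line on the 3 arrays, while many mitochondrial enzymes lie near it and Fars2 lies below it on all 3.

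Tars, which charges threonine tRNA, stood furthest from the parental array. It was at 1.07 on A and 1.48 on B in BCR-ABL cells without IL-3, against 0 in parental cells by construction, and at 1.06 with IL-3 (log2 differences). It was 2.42-fold higher without IL-3 than in parental cells (log2 1.27, SE 0.17, limma adjusted p = 0.000105). Array B was the higher by 0.41, among the widest gaps between A and B of any member, and both arrays lay more than 2-fold above the parental one. Cars, the cysteine enzyme, was at 0.92 on A and 1.03 on B, and at 1.06 with IL-3. It was 1.97-fold higher (SE 0.15 on the log2 scale, adjusted p = 0.000426). The 3 BCR-ABL arrays lay close together for Cars, all well above the parental value.

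Lars, the leucine enzyme and a component of the complex that also senses leucine for mTORC1, was at 0.78 on A and 1.07 on B, and at 0.76 with IL-3 (1.90-fold without IL-3, adjusted p = 0.00118). Hars, the histidine enzyme, was at 0.87 on A and 0.89 on B, and lower on the array with IL-3, at 0.62 (1.84-fold without IL-3, adjusted p = 0.000997). Wars, the tryptophan enzyme, which interferon also induces, was at 0.81 on A and 0.94 on B, and at 0.88 with IL-3 (1.83-fold, adjusted p = 0.00122). These 3 enzymes came next after Cars when members were ordered by this difference, so their close values follow from that order.

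Gars, the glycine enzyme of both compartments, was at 0.77 on A and 0.91 on B, and at 0.76 with IL-3 (1.79-fold, adjusted p = 0.00171). Yars, the tyrosine enzyme, was at 0.69 on A and 0.88 on B, and at 0.86 with IL-3 (1.72-fold, adjusted p = 0.00346). Iars, the isoleucine enzyme, was at 0.68 on A and 0.72 on B, and at 0.61 with IL-3 (1.63-fold, adjusted p = 0.0062). Iars was the only member measured by 2 probe sets. They gave 0.70 and 0.66 on A, 0.75 and 0.69 on B, and 0.57 and 0.65 with IL-3, so the probe sets differed little from each other. Farsb, the beta subunit of the phenylalanine enzyme, was at 0.56 on A and 0.80 on B (1.60-fold, adjusted p = 0.0112). Rars, the arginine enzyme, was at 0.70 on A and 0.62 on B (1.58-fold, adjusted p = 0.0103). The asparagine enzyme Nars and the bifunctional glutamate and proline enzyme Eprs completed the called cytosolic group, with log2 differences of 0.63 and 0.59 (adjusted p = 0.0182 and 0.028).

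With arrays centred on their medians, Tars, Cars, Hars, Wars, Gars, Iars, Rars and Aimp2 kept the call, with adjusted p between 0.0305 and 0.0498. Lars, Yars, Farsb, Nars, Eprs, Yars2, Nars2 and Fars2 lost it, with Lars at an adjusted p of 0.0592. Centred on the median over genes instead, a setting chosen after seeing the data, Lars and Yars kept the call too.

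The remaining cytosolic enzymes did not pass. Kars, the lysine enzyme, stood at 0.50 (95% interval 0.17 to 0.83, adjusted p = 0.0575) and Sars, the serine enzyme, at 0.39 (0.06 to 0.72). The lowest were Farsa, Vars and Qars. Farsa, the alpha subunit that pairs with Farsb in the phenylalanine enzyme, was at 0.28 on A and 0.29 on B, and at 0.20 with IL-3, a mean of 0.29 without IL-3 (95% interval -0.04 to 0.61). The subunits of this enzyme thus had differences of 0.29 for alpha and 0.68 for beta, and their intervals overlap. Vars, the valine enzyme, was at 0.08 on A and 0.22 on B, a mean of 0.15 (interval -0.17 to 0.48). Qars, the glutamine enzyme, was at 0.04 on A and 0.01 on B, and at -0.01 with IL-3. Its interval, -0.30 to 0.35, does not reach the 0.98 of Cars or the 1.27 of Tars.

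Called enzymes were found in both catalytic classes and inside and outside the complex. Of 8 measured cytosolic class I enzymes 6 were called higher (median 0.74), as were 5 of 8 in class II (median 0.65) and 5.19% of all genes. Eprs joins a class I and a class II domain and was counted in neither. Of the 6 measured enzymes of the multi-synthetase complex 4 were called (Lars, Iars, Rars and Eprs, median 0.62), against 8 of the 11 outside it (median 0.78). After centring over all probe sets, 4 were called higher in class I, 3 in class II, 2 in the complex and 5 outside it. The share of all genes called higher was then 1.93%. The scaffolds of that complex differed among themselves. Aimp2 was at 0.92 on A and 0.77 on B, and at 0.63 with IL-3 (1.80-fold without IL-3, adjusted p = 0.00161). Aimp1 was at -0.07 on A and 0.30 on B, and at 0.29 with IL-3, a mean of 0.12 that did not pass (adjusted p = 0.958). A and B lay on opposite sides of the parental array for Aimp1. Eef1e1, the third scaffold and no member of the named set, was at 1.02 on A, 1.28 on B and 1.02 with IL-3 (2.21-fold without IL-3, adjusted p = 0.000143).

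Promoters are shown because ATF4 elements are known from genes of this group. RefSeq promoter sequences (GRCm38.p6, 250 bases before to 50 after the annotated start) were found for 25 of the 34 members, of which 10 were cytosolic, 13 mitochondrial and 2 scaffolds. The core of the C/EBP-ATF element, TGATGNAA, was searched on both strands. It was present in 4 of the 10 cytosolic promoters, in 0 of 13 mitochondrial ones and in 0 of 2 scaffold ones, while 3.97% of all 32851 promoters in the table held it. Of the 12 cytosolic enzymes called higher, 6 had a promoter in the table. It held the element in Tars, Gars, Yars and Iars and not in Eprs or Farsb, and Cars, Hars, Lars, Nars, Rars and Wars were not searched. Of the 5 cytosolic enzymes that did not pass, 4 were searched (Farsa, Kars, Qars and Sars) and 0 held it. The called Yars2, Nars2, Fars2 and Aimp2 were searched and did not hold it either. The 4 promoters with the element follow 5′ to 3′ on the strand of the gene, with the element in capitals. In Tars, Gars and Iars it lies on the opposite strand and so reads as its reverse complement.
Tars: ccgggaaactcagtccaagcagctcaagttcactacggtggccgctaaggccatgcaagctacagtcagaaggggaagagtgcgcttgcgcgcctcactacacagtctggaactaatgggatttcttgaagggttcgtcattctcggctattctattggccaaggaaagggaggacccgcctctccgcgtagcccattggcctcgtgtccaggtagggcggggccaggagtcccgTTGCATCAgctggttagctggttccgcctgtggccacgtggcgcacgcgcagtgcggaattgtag
Gars: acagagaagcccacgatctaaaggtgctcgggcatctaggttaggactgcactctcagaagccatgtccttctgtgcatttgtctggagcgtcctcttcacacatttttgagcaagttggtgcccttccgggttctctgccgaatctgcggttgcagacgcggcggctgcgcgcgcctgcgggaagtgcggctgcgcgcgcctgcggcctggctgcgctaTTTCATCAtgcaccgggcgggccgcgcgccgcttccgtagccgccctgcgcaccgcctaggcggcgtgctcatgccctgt
Yars: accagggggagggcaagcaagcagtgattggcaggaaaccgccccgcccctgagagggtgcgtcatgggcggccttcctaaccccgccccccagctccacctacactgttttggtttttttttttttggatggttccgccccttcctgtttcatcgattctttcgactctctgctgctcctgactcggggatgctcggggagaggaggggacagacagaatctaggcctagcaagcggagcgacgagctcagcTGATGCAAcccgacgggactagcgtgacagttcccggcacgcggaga
Iars: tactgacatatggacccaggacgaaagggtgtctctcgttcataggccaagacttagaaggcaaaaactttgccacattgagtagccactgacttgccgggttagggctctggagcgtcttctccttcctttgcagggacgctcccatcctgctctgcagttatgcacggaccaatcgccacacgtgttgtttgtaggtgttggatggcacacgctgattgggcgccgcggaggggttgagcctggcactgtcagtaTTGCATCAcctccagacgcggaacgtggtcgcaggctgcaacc

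These windows are chr15:11399609-11399908 (- strand) for Tars, chr6:55037751-55038050 (+ strand) for Gars, chr4:129189653-129189952 (+ strand) for Yars and chr13:49681880-49682179 (+ strand) for Iars. The first base of the element lies 15 bases before the start in Tars and 30 before it in Gars, at base 4 of the transcript in Yars and at base 8 in Iars. Tars, Yars and Iars carry the letters TGATGCAA and Gars carries TGATGAAA, on the strand where the element reads forward. Another pair of motifs was searched in the same way. The E-box CACGTG, which MYC and related factors bind, was present in Farsb, Iars, Tars and Ears2, and in 7.15% of all promoters. The cyclic AMP element TGACGTCA was present in 0 of the 25, and in 1.79% of all promoters. The E-box overlaps none of the elements printed in capitals. A match describes letters in a window and does not show binding. Whether ATF4 had a part in the differences of these enzymes was not tested.

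Without IL-3, 10 of the 15 mitochondrial enzymes lay above the parental array and 5 below it, and 12 of the 15 were not called. Yars2, the mitochondrial tyrosine enzyme, was highest, at 0.53 on A and 0.83 on B, but at 0.33 with IL-3 (1.60-fold without IL-3, SE 0.17 on the log2 scale, limma adjusted p = 0.0135). Nars2, for asparagine, was at 0.39 on A and 0.81 on B, and at 0.30 with IL-3 (1.51-fold without IL-3, adjusted p = 0.0428). Its gap of 0.42 between A and B was the widest of all members. Rars2, for arginine, was at 0.34 on A and 0.58 on B and at -0.02 with IL-3, and its mean of 0.46 without IL-3 did not pass (adjusted p = 0.0989). For these 3 enzymes the array with IL-3 lay below both arrays without it.

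Fars2, the mitochondrial phenylalanine enzyme, which works as a monomer, was the only member called lower. It was at -0.69 on A, -0.46 on B and -0.26 with IL-3 (1.49-fold lower without IL-3 than in parental cells, log2 -0.57, SE 0.16, adjusted p = 0.0314). All 3 BCR-ABL arrays lay below the parental one, the one with IL-3 closest to it. Lars2 was at -0.10 on A, -0.16 on B and -0.21 with IL-3, and Sars2 was at -0.06, -0.05 and -0.26 on the same arrays. Neither passed without IL-3. Tars2, Iars2 and Mars2 stood at 0.40, 0.35 and 0.31 without IL-3 and did not pass. The other 6 mitochondrial enzymes lay between -0.01 and 0.10 (means of A and B).

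**Figure D2:**
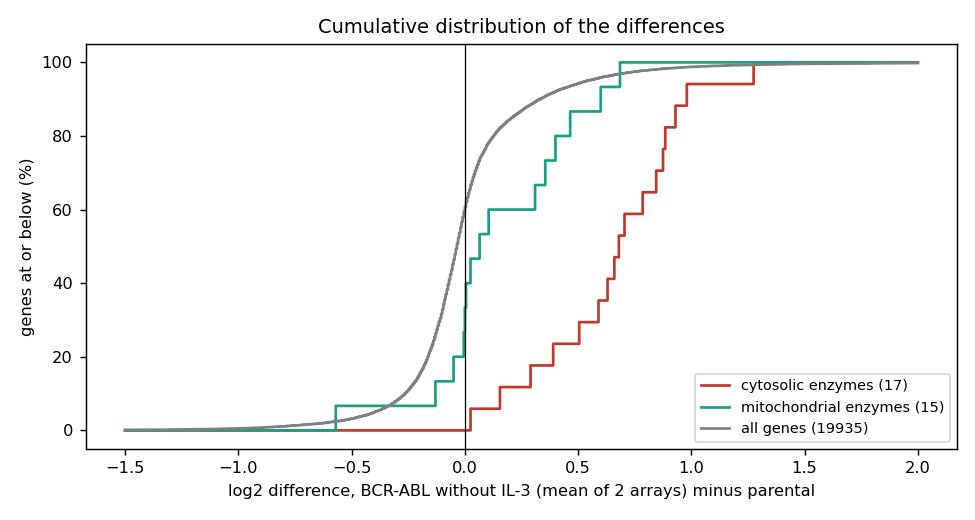
Share of genes at or below each log2 difference (horizontal axis, BCR-ABL without IL-3 minus parental, mean of 2 arrays) for the 17 cytosolic enzymes, the 15 mitochondrial enzymes and all 19935 genes. The cytosolic curve lies to the right of the others, with a median of 0.68. The mitochondrial curve lies to the right of that of all genes at the lower quartile (-0.004 against -0.137) and further so at the upper quartile (0.374 against 0.075).

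Setting each cytosolic enzyme beside its mitochondrial partner compares changes for the same amino acid. In 13 of 14 such pairs the cytosolic difference from the parental array was the larger on A, on B and on the array with IL-3, and in 0 pairs it was the smaller on all 3. The median gap between partners was 0.58 on A, 0.74 on B and 0.74 with IL-3 (log2). The gaps of a pair on all 3 arrays rest on the same parental array, so they do not count as separate evidence. These pairs share 2 enzymes, since Eprs is set beside both Ears2 and Pars2 and Fars2 beside both Farsb and Farsa, and no test was run over them. The widest gap was 1.25 between Farsb and Fars2, with 1.06 between Lars and Lars2 and 0.96 between Cars and Cars2 (means of A and B). The narrowest were Nars with Nars2 at 0.03, Yars with Yars2 at 0.10 and Rars with Rars2 at 0.20. In those 3 pairs the gap was wider with IL-3, at 0.33, 0.54 and 0.57. Hars and Hars2 are next to each other among the protein-coding genes of the RefSeq table (GRCm38.p6, chromosome 18). Hars rose, while Hars2 was at 0.04 on A and -0.04 on B (95% interval of the mean -0.32 to 0.32).

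**Figure D3:**
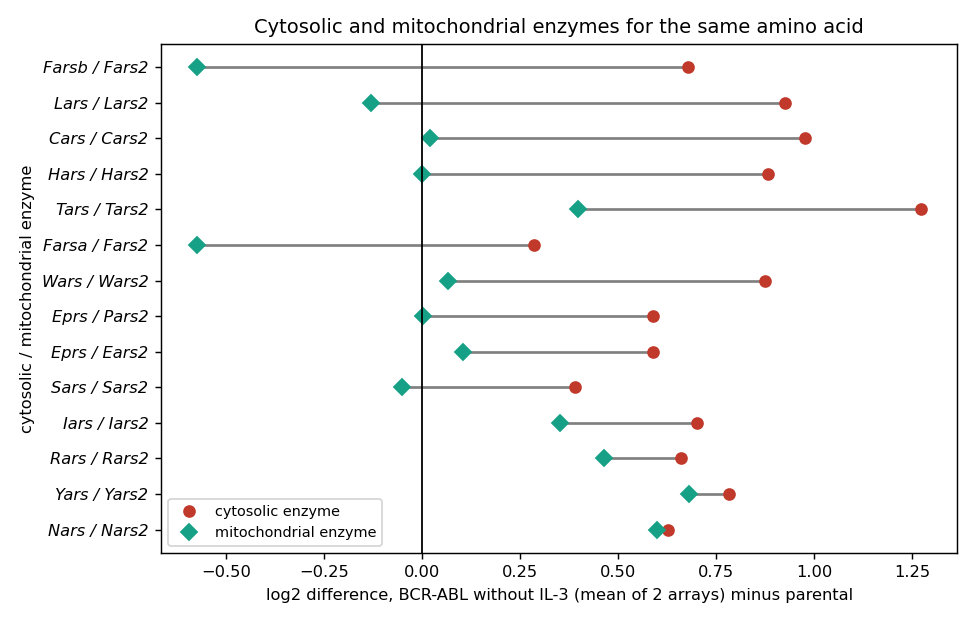
Log2 difference of BCR-ABL cells without IL-3 from parental cells (horizontal axis, mean of 2 arrays) for each cytosolic enzyme (circle) and the mitochondrial enzyme for the same amino acid (diamond), joined by a line. The partners lie 1.25 apart for Farsb and Fars2 at the top and 0.03 apart for Nars and Nars2 at the bottom.

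Adding IL-3 to cells that already express BCR-ABL was the second comparison (1 array with IL-3, 2 without). No member passed: 0 of 34 were called higher and 0 lower by limma, where 0.00502% of all genes were called higher and 0% lower. At an unadjusted p under 0.05 there were 3 members of 34, against 4.52% of all genes. These were Iars2 (-0.49, 95% interval -0.82 to -0.16), Rars2 (-0.48, -0.82 to -0.14) and Yars2 (-0.35, -0.70 to -0.01), all mitochondrial and all lower with IL-3, with adjusted p of 0.716, 0.762 and 1.00. Iars2, the mitochondrial isoleucine enzyme, was at -0.14 with IL-3, against 0.27 on A and 0.43 on B without it.

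The array with IL-3 lay below both A and B for 21 of 34 members, 10 of them cytosolic and 10 mitochondrial, where this held for 25.5% of all genes. It lay above both for 5 members, where this held for 39.9% of all genes. Median differences with IL-3 from without were -0.08 for cytosolic and -0.12 for mitochondrial enzymes, against 0.03 for all genes. Arrays A and B enter this comparison and the first with opposite sign, so the 2 comparisons are not independent. Array B was above A for 26 of 34 members (median gap 0.14), but for 6739 of all 19935 genes (median gap -0.07). Among cytosolic enzymes the widest difference was that of Hars, at -0.26 (interval -0.58 to 0.06). The intervals of Cars (-0.24 to 0.41), Wars (-0.32 to 0.34) and Nars (-0.33 to 0.34) reach no further than 0.41 in either direction. Those of some other cytosolic enzymes reach further, as far as -0.58 for Tars and 0.51 for Sars.

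**Figure D4:**
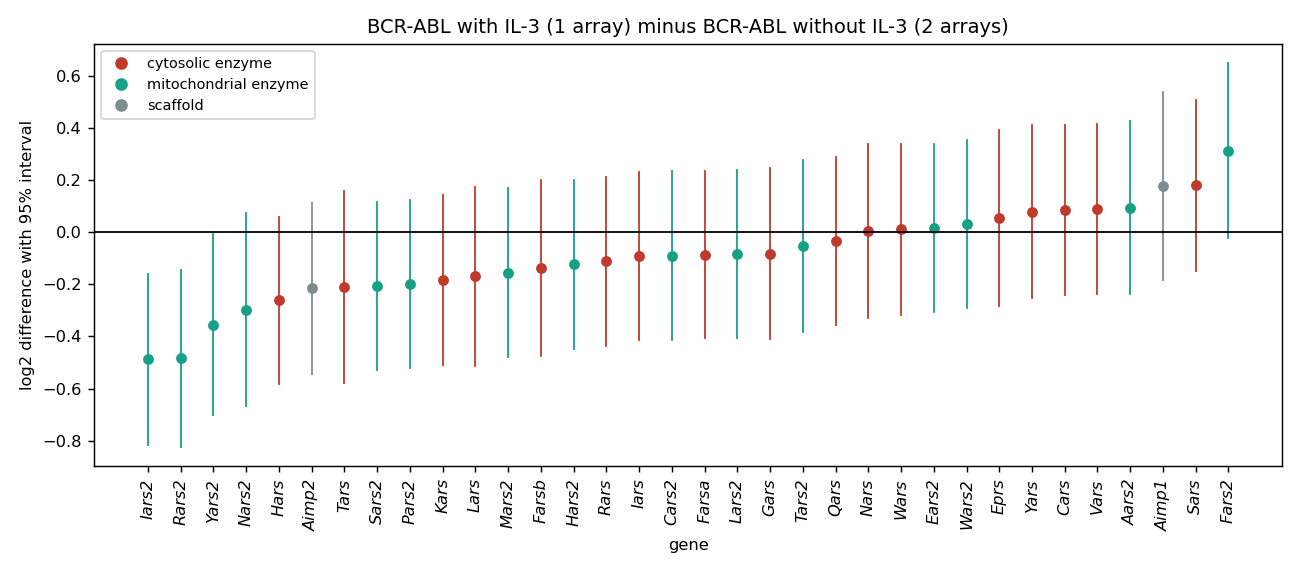
Log2 difference of BCR-ABL cells with IL-3 (1 array) from BCR-ABL cells without IL-3 (2 arrays) on the vertical axis, with 95% intervals from limma, for each member on the horizontal axis. The intervals of Iars2, Rars2 and Yars2 at the left lie below 0, and the others include 0.

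The third comparison was of BCR-ABL cells with IL-3 with parental cells, so both sides had the growth factor. It rests on 1 array a group, so values are given without a test, and 1.5-fold was taken as the size to count. Of 34 members 11 were at least 1.5-fold higher, where 3.3% of all genes were, and 0 were 1.5-fold lower, where 2.53% were. The 11 were 10 cytosolic enzymes and Aimp2, with no mitochondrial enzyme among them. Tars and Cars were each 2.09-fold higher, Wars 1.85-fold, Yars 1.82-fold, and Gars and Lars 1.69-fold each. Eprs, Nars, Aimp2, Hars and Iars lay between 1.53-fold and 1.56-fold, so just past the size counted, and Sars at 1.48-fold and Farsb and Rars at 1.46-fold fell just short. The median was 0.62 for cytosolic and -0.02 for mitochondrial enzymes, against 0.01 for all genes. Because the same parental array enters this comparison and the first, they do not count as separate evidence. Over both, 16 of 17 cytosolic and 6 of 15 mitochondrial enzymes were above the parental value on all 3 BCR-ABL arrays, where 23.6% of all genes were, and 3 mitochondrial enzymes (Fars2, Lars2 and Sars2) were below it on all 3, where 31.5% of all genes were.

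The genes around tRNA charging were read from lists in the comparison of BCR-ABL cells without IL-3 against parental cells. Over all genes 5.19% were called higher and 2.87% lower in that comparison, and 1.93% and 0.933% after centring over all probe sets. Of 29 measured genes of the ATF4 programme 15 were called higher and 0 lower (9 and 0 after centring over all probe sets), with a median of 0.58. Atf4 itself was at 0.91 on A and 0.93 on B, and at 0.84 with IL-3 (1.89-fold without IL-3, limma adjusted p = 0.000692). The list's highest were the folate enzyme Mthfd2 (3.46-fold), the stress regulator Nupr1 (3.42-fold) and asparagine synthetase Asns (2.66-fold). Ddit3, which encodes CHOP, was 2.08-fold higher, with an uneven 0.49 on A and 1.63 on B, and it lost its call after centring (adjusted p = 0.359). Some targets of the same response stood below the parental value without passing: the glutathione-degrading enzyme Chac1 at -0.30, the eIF2 phosphatase subunit Ppp1r15a at -0.43 and the mTORC1 inhibitor Ddit4 at -0.61. Of the 5 kinases and sensors that act on eIF2, Eif2ak2, the double-stranded RNA kinase PKR and an interferon-induced gene, was called higher (0.52, adjusted p = 0.0457, and 0.0785 after centring). Eif2ak4, which encodes the uncharged-tRNA sensor GCN2, was at -0.19 and its partner Gcn1 at 0.40, and neither passed. With IL-3, 18 of the 29 ATF4 programme genes were higher than without it and 11 lower (median 0.05, against 0.03 for all genes). The array with IL-3 lay above both A and B for 12 of the 29 and below both for 7. Of the 34 members, it lay above both for 5 and below both for 21, and of all genes for 39.9% and 25.5%.

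Of 10 other measured genes of tRNA charging 3 were called higher, where 5.19% of all genes were, and 0 lower, where 2.87% were. Those higher were Eef1e1, the editing factor Aarsd1 (0.59, adjusted p = 0.0418) and Gatc (0.53, adjusted p = 0.0425). Of these, Eef1e1 kept the call after centring. Gatc belongs to the amidotransferase that makes mitochondrial glutamine tRNA, for which mitochondria have no synthetase, and its partners Qrsl1 and Gatb were at 0.41 and 0.13 and did not pass. Vars2, the mitochondrial valine enzyme, was at 0.02. Of 18 measured genes of tRNA making and export 3 were called higher, the CCA-adding enzyme Trnt1 (1.71-fold), the tRNA 3′ nuclease Elac2 (0.56) and the RNA polymerase III subunit Polr3g (0.53). Maf1, the repressor of RNA polymerase III, was called lower (-0.58, adjusted p = 0.0356). Of these 4, none kept the call after centring, where adjusted p lay between 0.0677 and 0.167. The tRNA exportin Xpot was at 0.50 and did not pass (adjusted p = 0.0562).

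Of 4 measured cytosolic elongation factors Eef1d, which binds the valine enzyme, was called higher (0.55, adjusted p = 0.0318, and 0.0853 after centring), while Eef1a1 and Eef2 were at 0.00 and -0.03. Of 4 mitochondrial elongation factors 0 were called by limma, and their median was 0.33. An unadjusted p under 0.05 was reached by 2 of them, and by 3312 of all 19935 genes. Of 77 mitochondrial ribosomal protein genes 14 were called higher, where 5.19% of all genes were, and 0 lower, where 2.87% were. After centring 1 of the 77 was called higher (Mrps18b), where 1.93% of all genes were, and 0 lower. The median of the 77 was 0.31, which lies between those of the mitochondrial and the cytosolic synthetases. Mrps18b was 1.88-fold and Mrps10 1.68-fold higher. Mrpl42 (1.79-fold) was uneven, at 0.49 on A and 1.19 on B. With IL-3, 69 of these 77 were lower than without it (median -0.15), as were 7854 of all 19935 genes (median 0.03). Of the 77, 0 were called by limma and 11 had an unadjusted p under 0.05, as did 4.52% of all genes. Array B was above A for 53 of the 77, against 6739 of all 19935 genes, and both arrays enter this comparison.

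**Figure D5:**
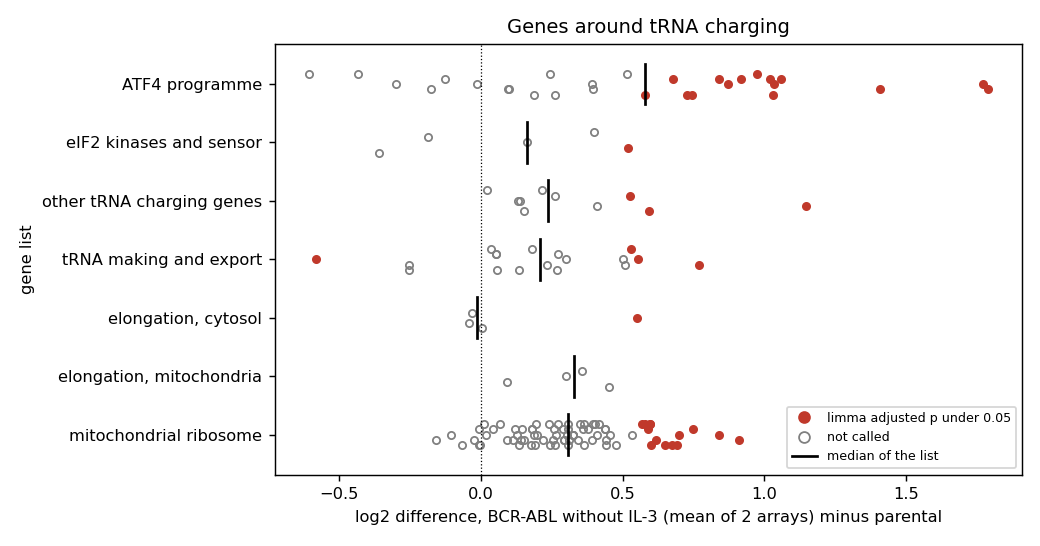
Log2 difference of BCR-ABL cells without IL-3 from parental cells (horizontal axis, mean of 2 arrays) for the genes of 7 lists around tRNA charging, filled where called by limma, with a bar at each list's median. The ATF4 programme has its median at 0.58 and reaches 1.79, and the mitochondrial ribosome has its median at 0.31.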

How the data were processed

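RNA of 4 Ba/F3 samples was hybridised to Affymetrix Gene 1.0 ST arrays, per the labels' protocols. Judged by the values, the authors deposited log2 differences between each array and the parental one, whose column is 0 throughout. Their background correction, normalization, probe summary and log base are not given in the sources used here. The base was taken as 2 because 99.7% of the 86431 nonzero deposited values are whole multiples of 2 to the power -21 (within their printed digits or single precision), which is how finely single precision stores numbers from 4 to 8. Probe sets with an odd multiple on any array were taken as dim (11203). A dim probe set whose values are even multiples, or not whole ones, is missed by this mark.

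Probe sets with 1 symbol in the platform annotation (21780 of 28815) were averaged into 19935 genes. A limma fit (version 3.58.1 in R 4.3.3) gave the means of the 3 groups from all 4 arrays. The gap from A to B supplies its 1 residual degree of freedom, and lone arrays are taken to vary like that pair. P-values were two-sided and Benjamini-Hochberg adjusted over all genes, and calls were made at 0.05. The prior, pooled over all genes, had 16.4 degrees of freedom, so it sets most of each standard error. Farsa, with a gap of 0.01 from A to B, had a standard error of 0.15, and Nars2, with 0.42, had 0.18. The p-values thus follow mainly the size of a difference. The script was tested on simulated data. Medians and counts of members carry no test.

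The members, lists and tests were chosen with earlier results of these data known. Values were given by rule for the 12 most changed called members, the extremes of each compartment, those with the widest gap between A and B, and those with the largest differences in the other comparisons. From each list up to 4 called genes and up to 3 others were named. Nars, Eprs, Kars, Sars, Hars2, the mitochondrial enzymes named without values for each array and, on the lists, Atf4, Ddit3, Vars2, Gatb and Eef2 were added after their values were seen. The alternatives tried were centring, the median of probe sets, leaving out dim probe sets, other thresholds, a fit of 2 groups, and leaving out A or B. A mean-variance trend was not fitted, since the values hold no levels.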

Additional observations from a re-analysis of the deposited data

How the results depend on the processing

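Taking the median of a gene's probe sets, leaving out dim probe sets or fitting only the 2 groups compared changed no call of any member in the first 2 comparisons. Centring each array on its median reduced the members called in BCR-ABL cells without IL-3 against parental cells to 8 higher and 0 lower, and those of all genes to 384 higher and 186 lower from 1035 and 572. Centring on the median over genes, chosen after seeing the data, left 10 and 0 members and 637 and 299 genes. The prior had 4.21 and 5.02 degrees of freedom in these fits, against 16.4 without centring. With the first centring, the median of cytosolic enzymes without IL-3 against parental cells rose from 0.68 to 0.71. The members that lost a call of higher thus did so without a smaller difference. The medians of mitochondrial enzymes became 0.10 in that comparison and -0.16 with IL-3 against without. Values near 0 changed sign under centring, to 0.0328 for Hars2 and 0.0256 for Aars2 in the first comparison, and to -0.0248 for Wars, -0.0315 for Nars, -0.0203 for Ears2 and -0.0041 for Wars2 in the second, none of them called. With A or B alone, the median difference from parental cells ranged from 0.68 to 0.73 for cytosolic and from 0.0789 to 0.105 for mitochondrial enzymes, and the difference of the array with IL-3 ranged from -0.0909 to -0.0098 and from -0.138 to -0.1037. In the same settings, chosen after seeing the data, 10 to 15 members were at least 1.5-fold higher than in parental cells and 0 to 1 lower, the last being Fars2 on A. Calls with A or B alone were not run, since no residual degree of freedom is left. At 2-fold, 1 member remained without IL-3 (a setting chosen after seeing the data) and 2 with IL-3. In a limma fit that borrows the spread of A and B, 6 members were called higher with IL-3 than in parental cells (2.51% of all genes) and 0 lower (1.79%), which sets 1 array against 1 and has no replicate check of its own. No paired analysis was possible because the groups share no replicate numbers.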
